A study of Cavia porcellus with 30 samples.

Results

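The livers compared here came from 5 guinea pigs given the high dose of thioacetamide (100 mg/kg) and 5 given saline vehicle (3 ml/kg), all sampled at 9 h. They are 10 of the 30 animals of the series and were chosen by their dose and duration labels alone. All are Hartley guinea pigs, an outbred breed, and each animal gave 1 liver library. The series also holds 5 animals each for vehicle and high dose at 33 h and for the low dose (25 mg/kg) at 9 h and 33 h, which are used below only to place the 9 h changes. Age and sex are not given in the labels. The stated aim of the dosing was graded liver injury.

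Thioacetamide is not toxic in itself. Oxidising enzymes of the hepatocyte convert it stepwise to an S-oxide and then to a reactive S,S-dioxide, which binds to proteins and lipids. The injury is known to begin around the central vein, where those enzymes are most abundant. Transcription in the liver changes within hours of such an insult, before most of the dead cells have been cleared and replaced.

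Levels were measured as poly-A RNA per transcript, as estimated counts and as TPM (a share of the library's RNA corrected for transcript length). The 10 libraries held 23714200 to 33842300 estimated counts. Mean fragment lengths were 196.7 to 222.1 bases in the high dose libraries and 198.0 to 234.8 bases in the vehicle libraries. Their scaling factors also overlapped, at 0.858 to 0.934 and 0.869 to 0.951, while those of the high dose at 33 h were 1.23 to 1.43. Neither the tables nor the reference used here pair the transcript identifiers with gene symbols, so the labelled tissue was not checked against its marker genes, and gene groups such as stress responses or drug metabolism were not analysed here. Instead, 2 rising and 2 falling transcripts are described by identifier, and the others by class. In a whole liver, fewer cells of a type and less RNA per cell cannot be told apart.

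At 9 h after the high dose, 2469 transcripts had risen (13.5% of the 18239 tested) and 2327 had fallen (12.8%), where called means a Benjamini-Hochberg adjusted p under 0.05 in edgeR's quasi-likelihood test. The changes were near balance in number and unequal in size. Among changes under 2-fold, falls outnumbered rises, 2047 to 1259. Above 2-fold the order turned, with 626 rises and 223 falls at 2-fold to 4-fold, 254 and 32 at 4-fold to 8-fold, 130 and 7 at 8-fold to 16-fold, and 200 and 18 beyond 16-fold. A transcript near 0 in vehicle liver can rise but can hardly fall, which limits the comparison of the large classes. The largest rises began low. Transcripts that rose beyond 16-fold had a median vehicle level of 0.0256 TPM and a median high dose level of 1.14 TPM, whereas those that rose less than 2-fold went from a median of 6.80 TPM to 9.66 TPM.

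**Figure D1:**
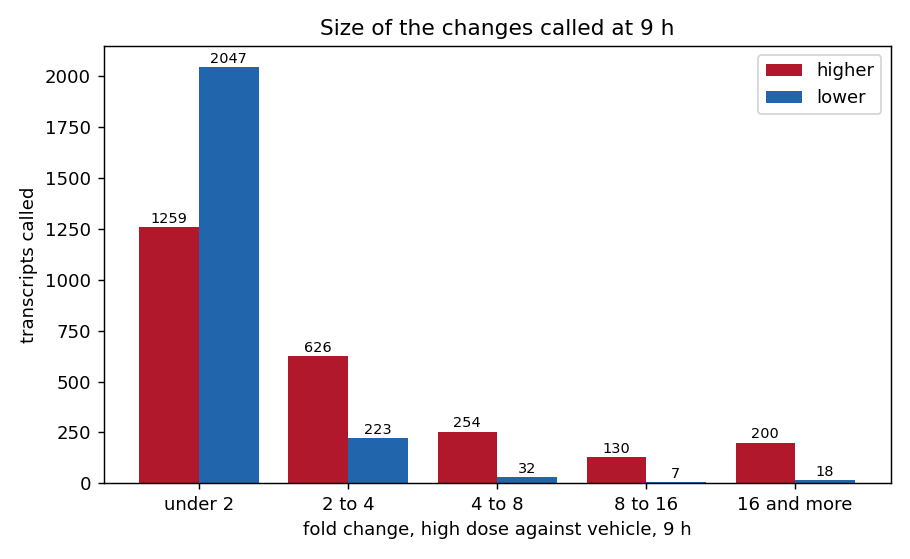
Number of transcripts called higher (red) or lower (blue) at the high dose than in vehicle livers at 9 h, by size of the fitted fold change. Falls dominate under 2-fold (2047 against 1259) and rises dominate every larger class.

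The groups did not overlap in most called transcripts. A call and a lack of overlap rest on the same 10 animals, so the first makes the second likely and the counts are a description. Each high dose animal was above each vehicle animal in 1801 of the 2469 rises (72.9%), and below each in 1526 of the 2327 falls (65.6%). Over all tested transcripts, whether called or not, 1969 (10.8%) were separated upward and 1692 (9.28%) downward, most of them the called transcripts just counted. Of 584 rises of at least 4-fold, 504 were without overlap (86.3%), against 25 of 57 such falls (43.9%). Most of the large falls were also of low abundance, since 18 of the 57 reached a mean of 5 CPM (counts scaled to a common library size) in the higher group, against 244 of the 584 rises. The standard errors widened with the fold: their median was 0.26 on the log2 scale for falls of 2-fold to 4-fold and 1.95 for falls beyond 16-fold.

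The rise that added most RNA was that of ENSCPOT00000038668.1, a transcript of 480 bases that ranked 29 of 25824 by mean TPM in the vehicle livers of 33 h. Its level was 4785, 6278, 5030, 5844 and 5568 TPM in the 5 vehicle animals and 7095, 8323, 8894, 7031 and 7862 TPM in the 5 high dose animals. The lowest high dose animal thus stood above the highest vehicle animal, a separation that the rule for picking this transcript requires. The means were 5501 ± 604 and 7841 ± 799 TPM (SD, n = 5 each), and the fitted log2 fold change was 0.59 ± 0.15 (SE, edgeR adjusted p = 0.0035). The means differed by 2340 TPM, more than for any other called rise. Their ratio was 1.43, and the fitted change, scaled by TMM, was 1.51-fold. The low dose animals at 9 h lay at 5208 to 7475 TPM and overlapped both groups. Neither the low dose against vehicle (log2 difference 0.14 ± 0.15, edgeR adjusted p = 0.565) nor the high against the low dose (0.46 ± 0.15, adjusted p = 0.0624) passed the test. Over all transcripts, 24.7% were called for the low dose at 9 h, 7.08% between the doses and 35.9% for the difference of the high dose effect between times.

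At 33 h the same transcript showed no such rise. It stood at 6676 ± 948 TPM in vehicle and 6628 ± 1260 TPM in high dose livers (SD, n = 5 each), with overlapping ranges of 5075 to 7516 and 4665 to 7978 TPM. The model scaled by TMM gave a fall there (ENSCPOT00000038668.1, log2 fold change -0.65 ± 0.15, edgeR adjusted p = 0.000626), which was lost with library totals (-0.04, adjusted p = 0.825). The vehicle livers of 33 h also reached above those of 9 h, whose highest value was 6278 TPM.

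The rise with the lowest p was that of ENSCPOT00000033724.1, of 3171 bases, which was scarce in vehicle liver. The vehicle animals measured 0.396, 0.741, 0.827, 0.618 and 0.664 TPM and the high dose animals 14.7, 20, 17.1, 16 and 17.3 TPM. Every treated animal was above every vehicle animal, as the rule for picking this transcript requires. Picking by lowest p also favours groups with little spread, so neither trait is read as a result. The 5 vehicle libraries together held 230 estimated counts of ENSCPOT00000033724.1 and the 5 high dose libraries 5724. The mean went from 0.649 ± 0.162 to 17.0 ± 1.97 TPM (SD, n = 5 each), a fitted rise of 27.6-fold (log2 4.78 ± 0.27, SE, edgeR adjusted p = 3.03e-12).

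The low dose animals reached 8.21 to 16.8 TPM of ENSCPOT00000033724.1, between the other groups of 9 h and overlapping the high dose range of 14.7 to 20 TPM. Set directly against the low dose, the high dose had a log2 difference of 0.76 ± 0.22 (SE, edgeR adjusted p = 0.0388), and this call did not hold with library totals (0.61, edgeR adjusted p = 0.087). That comparison reuses the high dose animals that picked the transcript, so it is a description. By 33 h most of the rise was gone. High dose livers then measured 1.98 ± 0.962 TPM and vehicle livers 0.566 ± 0.0856 TPM (SD, n = 5 each), which was still a rise (log2 1.17 ± 0.26, adjusted p = 0.000437). The effect at 33 h was smaller than at 9 h by a tested log2 difference of -3.61 ± 0.37 (SE, edgeR adjusted p = 2.85e-08). Low dose livers at 33 h, at 0.417 to 0.961 TPM, overlapped the vehicle range of 0.497 to 0.705 TPM.

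The fall that removed most RNA was that of ENSCPOT00000006650.3, of 1869 bases. Vehicle livers varied widely, at 788, 1554, 676, 1353 and 539 TPM, while the high dose livers were uniformly low, at 241, 170, 211, 202 and 167 TPM. The groups did not overlap, as the rule for picking this transcript requires. The vehicle animals differed among themselves by more than the lowest vehicle animal differed from the treated ones. The means were 982 ± 445 and 198 ± 30.5 TPM (SD, n = 5 each), a fitted fall of 4.75-fold (log2 -2.25 ± 0.35, SE, edgeR adjusted p = 1.64e-05). The low dose at 9 h gave 319 ± 94.4 TPM, also lower than vehicle (log2 -1.74 ± 0.34, adjusted p = 0.000437), and no difference between the doses was detected (-0.51 ± 0.33, SE, adjusted p = 0.402). Both comparisons reuse animals that picked the transcript, so they are a description. The fall was present at 33 h too, where high dose livers had 340 ± 93.7 TPM against 941 ± 382 TPM in the vehicle group (SD, n = 5 each, log2 -2.11 ± 0.35, adjusted p = 1.07e-05). The ranges then overlapped, since 1 vehicle animal was at 343 TPM and the high dose animals ran from 259 to 450 TPM. The effect of the high dose on it did not pass the test of a difference between times (0.13 ± 0.47, SE, adjusted p = 0.859). With library totals the fall at 33 h was -1.52 on the log2 scale (edgeR adjusted p = 0.000125) and the difference between times 0.73 (adjusted p = 0.164).

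The fall with the lowest p was that of ENSCPOT00000003446.3, of 3802 bases. Its level was 17.7, 16, 21.9, 20.3 and 22.4 TPM in vehicle animals and 6.84, 4.48, 5.82, 4.71 and 4.51 TPM in high dose animals. The picking rule requires groups without overlap, and the lowest p favours groups far apart relative to their spread. The means were 19.7 ± 2.73 and 5.27 ± 1.03 TPM (SD, n = 5 each), a fall of 3.54-fold (log2 -1.82 ± 0.13, SE, edgeR adjusted p = 7.16e-11). The low dose animals at 9 h, at 8.18 to 11.8 TPM, lay between the others without overlap, and both steps passed the test (low dose against vehicle -1.04 ± 0.13, adjusted p = 8.54e-07; high against low dose -0.78 ± 0.13, adjusted p = 0.00066). Both steps reuse the high dose and vehicle animals that picked the transcript, so the order by dose is a description. At 33 h ENSCPOT00000003446.3 was at 11.7 ± 1.68 TPM after the high dose and 19.4 ± 0.896 TPM in the vehicle group (SD, n = 5 each, log2 -1.35 ± 0.13, adjusted p = 1.42e-09). The fall was smaller at 33 h than at 9 h by a log2 difference of 0.47 ± 0.18 (SE, edgeR adjusted p = 0.0408), and by 1.09 with library totals. Low dose livers at 33 h, at 15.8 to 20.6 TPM, overlapped the vehicle range of 18.0 to 20.2 TPM.

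**Figure D2:**
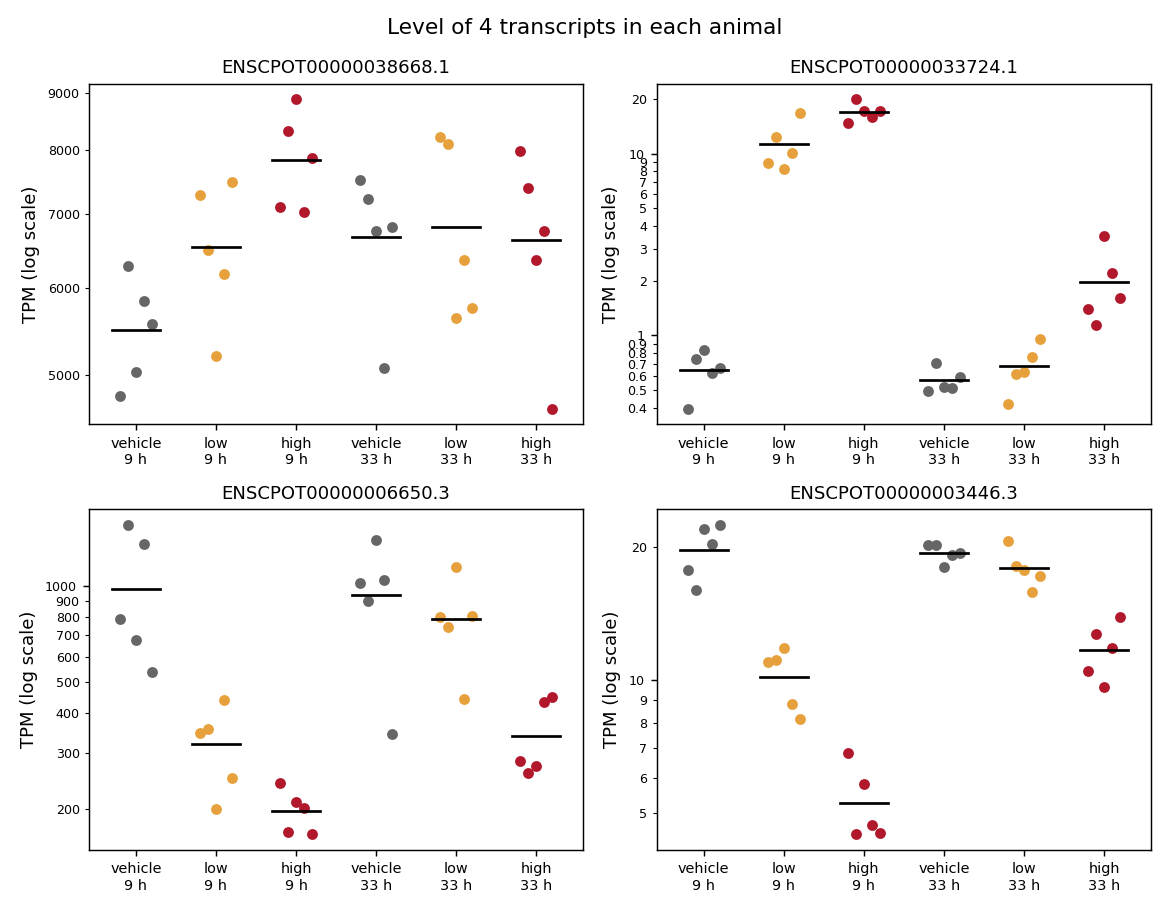
TPM (log scale) of the 4 transcripts described, 1 point per animal with a bar at the mean of 5 animals, by dose and time. In the 9 h groups the high dose and vehicle animals do not overlap in any panel, as the rule for picking them requires, and ENSCPOT00000003446.3 steps down from vehicle to low to high dose.

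The called transcripts were a modest part of the RNA. The 2469 rises together made up 6.04 ± 0.23% of TPM in vehicle livers and 10.4 ± 0.495% in high dose livers, and the 2327 falls 4.80 ± 0.128% and 3.00 ± 0.183% (SD, n = 5 each). These sums were chosen by the same animals and are given as a description. Of the rises, 50 carried 50% of the gain, and of the falls 107 carried 50% of the loss. Such counts were not computed for other sets of transcripts, so no concentration is read from them. The other animals entered the choice through the model's count filter and shared spread, not as a compared group. In them the rises held 6.06 ± 0.368% of TPM in vehicle livers at 33 h, 9.49 ± 0.889% in low dose livers at 9 h and 11.9 ± 1.07% in high dose livers at 33 h (SD, 5 animals each). The falls held 4.37 ± 0.204%, 3.59 ± 0.237% and 4.64 ± 0.118% in the same groups (SD, n = 5 each). In TPM, the summed share of the rises was thus high at both times after the high dose. That of the falls was low at 9 h, with 33 h values of 4.53% to 4.78% that overlapped the vehicle range of 4.14% to 4.58%. These shares are not scaled by TMM. With library totals, the median log2 fold change of all tested transcripts at 33 h was 0.70. With TMM, falls of at least 2-fold had a 33 h median of -0.68. The 33 h shares are therefore not read as rises that lasted or falls that recovered.

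The calls were then counted by abundance in vehicle liver, set on the vehicle animals of 33 h, which are in neither group. Of 5118 transcripts under 1 TPM, 750 rose (14.7%) and 144 fell (2.81%), and the class median log2 fold change was 0.23. At 1 to 10 TPM, 1094 of 7701 rose (14.2%) and 1259 fell (16.3%). At 10 to 100 TPM falls outnumbered rises, 867 (19.3%) against 546 (12.2%) of 4486, with a class median of -0.05. The rises in that class had a median log2 fold change of 0.59 and the falls -0.44. Scaling by library totals left the balance of each of these classes in the same direction (706 against 133, 964 against 1179, and 464 against 833). At 100 to 1000 TPM the calls were 72 rises (8.94%) and 55 falls (6.83%) of 805, and 67 and 64 with library totals. Of the 129 transcripts above 1000 TPM, 5.43% rose and 1.55% fell.

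**Figure D3:**
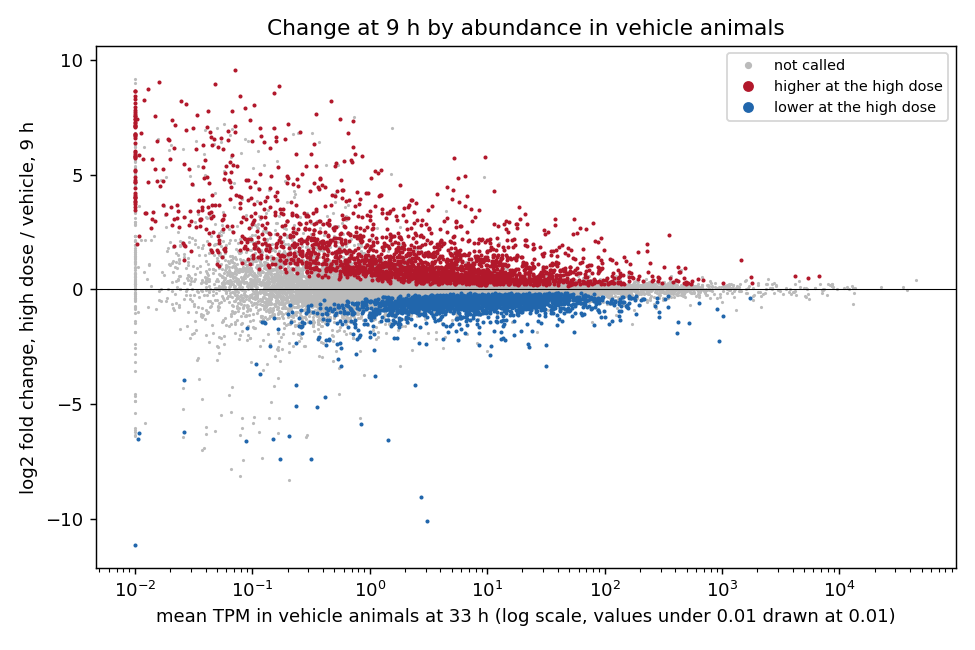
Fitted log2 fold change at 9 h of each tested transcript against its mean TPM in the 5 vehicle animals at 33 h (log scale). Large rises (red) crowd at the left, where 750 of 5118 transcripts under 1 TPM rose, and called falls (blue) number 867 of 4486 at 10 to 100 TPM, with a median log2 fold change of -0.44 there.

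Of the tested transcripts, 91 had a count of 0 in all 5 vehicle livers at 9 h, and 42 of these were called higher at the high dose, where 13.5% of all tested transcripts were. They passed the count filter through other groups and could only rise, so nothing is read from that direction. Of the 42, 15 had at least 3 counts in every high dose animal. Taking 3 counts in each vehicle library as the floor (0.119 CPM), 27 of the 42 were at least 4-fold higher, while the lowest ratio to the floor was 0.573, which sets no fold. They remained scarce, with a median of 0.248 TPM and a range of 0.0595 to 19.5 TPM in the high dose livers. At 33 h, 29 of the 42 had counts in at least 1 vehicle liver, so a count of 0 at 9 h does not show absence from the vehicle liver. All 5 low dose livers at 9 h held counts of 22 of them.

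The number of transcripts with at least 10 counts was 16641, 16591, 16732, 16660 and 16512 in the high dose livers and 16112, 15934, 16676, 16274 and 16190 in the vehicle livers. The groups overlapped through vehicle animal 3, which had the deepest library. The means were 16627 ± 81.9 and 16237 ± 276 (SD, n = 5 each), and the difference of 390 had a two-sided exact permutation p of 0.0397, or 0.0794 adjusted over the 2 values tested per animal, so it did not pass after adjustment. After thinning each library to the smallest total of the series the difference was 482 (exact permutation p = 0.00794), at a minimum of 5 counts it was 490 (exact p = 0.0159), and at a minimum of 50 counts 72.8 (exact p = 0.714), all unadjusted. The 100 most abundant transcripts held 39.7 ± 1.35% of counts at the high dose and 40.9 ± 0.532% in the vehicle group (SD, 5 animals each), a difference of -1.24 percentage points that did not pass either (two-sided exact permutation p = 0.103, adjusted p = 0.103). Without high dose animal 4, whose share was 41.9% against 38.2% to 39.8% in the other treated animals, that difference was -1.78 points (exact permutation p = 0.0159). Leaving out any other single animal gave an exact permutation p of 0.111 to 0.206. These values are unadjusted.

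Over the 1210 rises of at least 2-fold, the median log2 difference from the vehicle mean was 1.81, 1.90, 1.98, 1.84 and 1.77 in the 5 treated animals. Over the 280 falls of at least 2-fold it was -1.19, -1.26, -1.33, -1.37 and -1.30. These animals chose the transcripts, and the test favours transcripts that vary little within a group, so both the sizes and their likeness are a description. High dose animal 3 was the highest of the 5 in 347 of the 1210 rises (28.7%), against 18.7% of all tested transcripts. High dose animal 1 was the highest in 177 (14.6%), against 23.9% of all tested transcripts. Animals of a group also varied by similar amounts in both groups. For transcripts at a mean of at least 5 CPM, the median SD of log2 CPM was 0.18 at the high dose and 0.173 in vehicle livers, and in the 535 such rises of at least 2-fold it was 0.282 and 0.313.

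**Figure D4:**
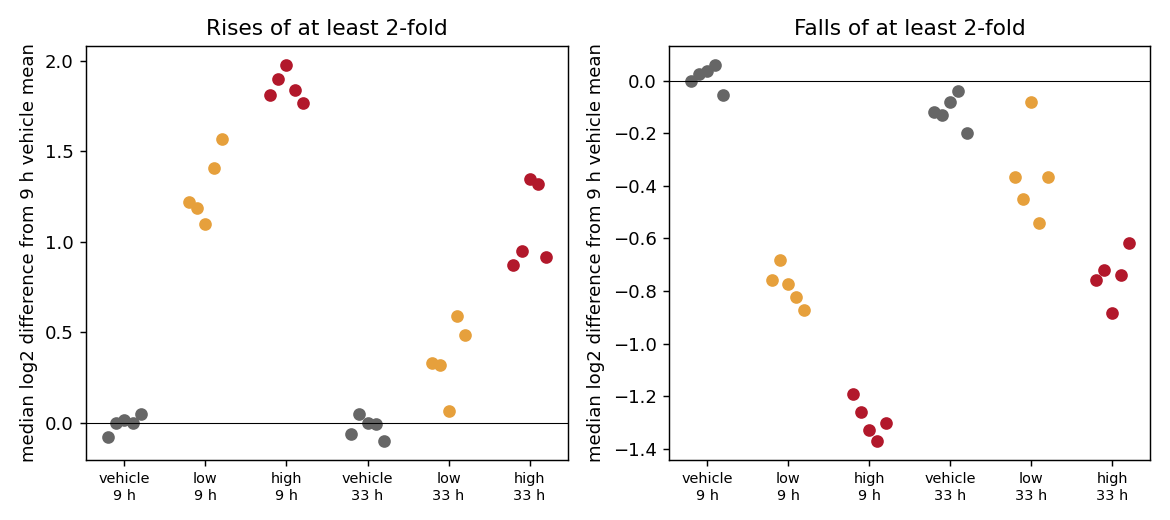
Median log2 difference from the mean of the 9 h vehicle animals over the rises (left) and falls (right) of at least 2-fold, 1 point per animal, by dose and time. The 9 h high dose animals (1.77 to 1.98 and -1.37 to -1.19) chose the transcripts, and the low dose animals of 9 h lie at 1.10 to 1.57 and -0.87 to -0.68.

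The fitted changes of these transcripts were smaller at the low dose. For rises of at least 2-fold the median log2 fold change was 1.96 at the high dose and 1.36 at the low dose, and for falls of at least 2-fold -1.36 and -0.83. Both comparisons use the same vehicle animals, and the high dose values were used to choose the transcripts, so the sizes are set side by side only. By fold class the low dose medians were 0.49 for rises under 2-fold, 0.98 at 2-fold to 4-fold, 1.68 at 4-fold to 8-fold, 2.49 at 8-fold to 16-fold and 4.42 beyond, against 0.57, 1.37, 2.36, 3.39 and 5.69 at the high dose. The falls did not follow such an order, and those of at least 8-fold (25 transcripts) had a low dose median of -0.92. A comparison that shares no animal sets the low dose of 9 h against the vehicle livers of 33 h. It comes from the same model, so it shares the count filter and the estimate of spread. There, 823 of the 1210 rises (68.0%) were called higher, where 18.2% of all transcripts were, and 128 of the 280 falls (45.7%) were called lower, where 16.3% were. With library totals these were 902 and 98, with backgrounds of 25.6% and 7.68%. Dose and time both differ in that comparison.

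At 33 h, in animals outside the 9 h groups, 723 of the 1210 large rises (59.8%) were called higher at the high dose. Of all tested transcripts 28.2% were, and 27 of the large rises were called lower. All animals share the model's count filter and its estimate of each transcript's spread. A transcript of small spread is thus called more easily at both times, so these shares are a description. The median log2 fold change of the large rises at 33 h was 1.14, with quartiles of 0.47 and 2.18. It was larger in the larger classes of 9 h, being 0.43 for rises under 2-fold, 0.82, 1.14 and 1.80 for the next classes and 2.80 beyond 16-fold. The median vehicle level at 9 h went from 6.80 TPM in the first of these classes to 0.0256 TPM in the last. The part of abundance in this order was not tested. Of the 280 large falls, 139 (49.6%) were called lower at 33 h, against 22.5% of all tested, and 21 were called higher, with a median of -0.68. This count of falls depended on scaling. With library totals 71 of the 280 (25.4%, against 8.66% of all tested) were lower and 63 higher, the median being -0.07 where that of all transcripts was 0.70. On that scale 961 of the 1210 rises (79.4%) were higher, against 56.8% of all tested transcripts. Of 2047 falls under 2-fold 849 were lower at 33 h (41.5%) and 351 were higher (17.1%). Falls of at least 8-fold, most of them scarce, had a median of 0.38 at 33 h.

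**Figure D5:**
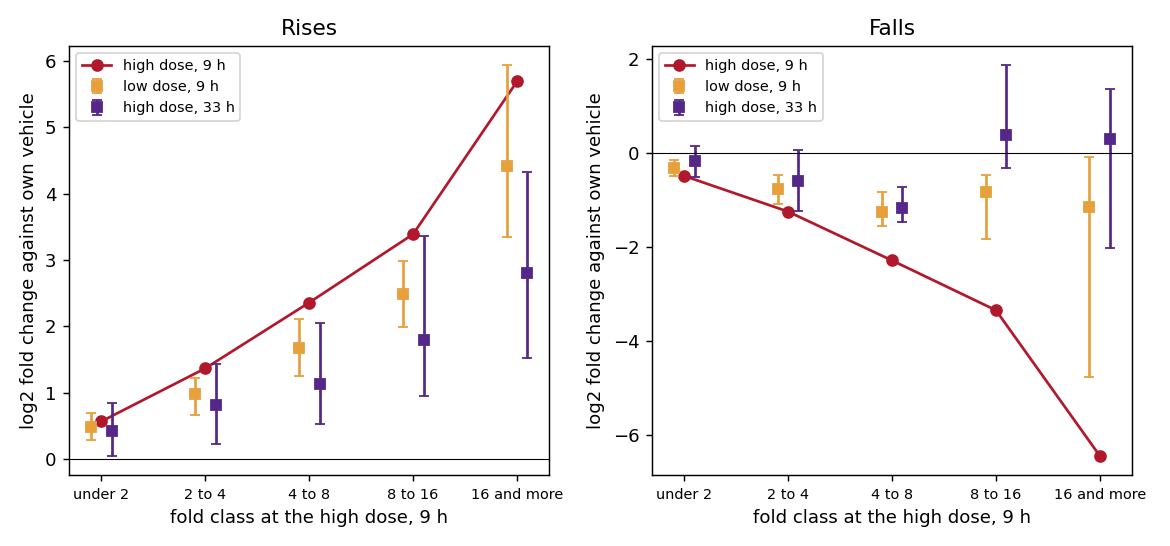
Median fitted log2 fold change against the vehicle group of the same time, for transcripts grouped by direction and fold at the high dose, 9 h (red, the values that set the classes), at the low dose, 9 h (orange) and at the high dose, 33 h (purple), where bars are quartiles over transcripts. Medians of the rises increase with class in both other groups (0.49 to 4.42 and 0.43 to 2.80), while the classes of the largest falls are at 0.39 and 0.30 at 33 h. The low dose shares the 9 h vehicle animals with the values that set the classes. The classes also differ in vehicle level, so the order is a description.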

How the data were processed

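Stranded poly-A libraries of guinea pig liver were read from both ends, per the labels' protocols. The authors ran kallisto 0.42.4, per the submitters' processing notes; the transcript set is not given in the sources used here. The deposited estimated counts are not normalized, and the TPM values were computed by the authors from them and the effective length, per the file headers. Reads shared between similar transcripts are divided by that estimate, so a change in 1 transcript can be a change in the division. Of 25824 identifiers, 0 matched the reference table (mCavPor4.1), and the planned gene lists were not run.

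Groups came from the labels, and replicate numbers only name animals. Nothing but the series design, which counts 30 animals, says that libraries are separate animals. Estimated counts were rounded and fitted with edgeR 4.0.16 (R 4.3.3): filterByExpr (minimum count 10, total 15), TMM scaling, 1 robust quasi-likelihood model of 6 groups and 30 animals, Benjamini-Hochberg over 18239 transcripts. Fold changes include a prior count of 0.125. A standard error is the absolute log2 fold change divided by the root of its F statistic. Floors cover counting error only. In simulated counts for this comparison (16273 transcripts tested), the model recovered 34.3% of 1.5-fold, 71.6% of 2-fold and 93.9% of 4-fold changes, and 10 of 143 calls were false. Only 67, 67 and 66 transcripts were changed there, none of them of low count, with the spread of the vehicle animals. In the data many more were called, and the largest rises were scarce, so these rates do not carry over to those calls.

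The naming rule took, among called, non-overlapping transcripts averaging 5 CPM or more in whichever group was higher, the largest difference in mean TPM and the lowest p in each direction. Comparisons, lists and classes were chosen with earlier results of these data known, and the comparison of the low dose with the 33 h vehicle livers was added after seeing the data. Alternatives were median-of-ratios size factors, library totals, no or a stricter filter, DESeq2 1.42.0, limma voom 3.58.1, the 10 animals alone and leaving out each animal.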

Additional observations from a re-analysis of the deposited data

Results flagged for a closer look

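For 3 of the 4 transcripts described, the high dose effect was not the same at 9 h and 33 h in the model of all animals (edgeR quasi-likelihood, adjusted over all transcripts). The log2 difference, 33 h minus 9 h, was -1.24 ± 0.21 for ENSCPOT00000038668.1 (SE, adjusted p = 4.15e-05), and -0.63 with library totals (adjusted p = 0.0124). For ENSCPOT00000033724.1 it was -3.61 ± 0.37 (SE, adjusted p = 2.85e-08), and -2.99 with library totals. For ENSCPOT00000003446.3 it was 0.47 ± 0.18 (SE, adjusted p = 0.0408), and 1.09 with library totals. The transcripts were picked for their change at 9 h, which by itself makes a smaller change at 33 h more likely. Dixon's criterion flagged no animal in the 32 sets of 5 values checked (levels of the 4 transcripts, library totals, fragment lengths and summary values). With 5 values it flags only a gap above 0.71 of the range, so lesser departures pass. For example, ENSCPOT00000006650.3 was at 343 TPM in 1 vehicle liver at 33 h and at 899 to 1394 TPM in the others. The library and summary values checked were those of the high dose and vehicle groups at 9 h. Outside these sets, 1 low dose library at 9 h had a mean fragment length of 249.9 bases, against 204.3 to 217.3 bases in the others of its group.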

How the results depend on the processing

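The number of transcripts called between high dose and vehicle at 9 h was 4796, and 4301 to 5477 over 17 alternatives; 84.4% to 99.6% of the calls were kept with the same sign and none was called with the opposite sign. Rises were 50% to 52.5% of calls in all of them. With library totals 4420 were called, 2209 of them higher. Leaving out 1 animal gave 4301 to 4537 calls, of which 2242 to 2335 were higher and 2059 to 2204 lower. The 4 transcripts described were called under each alternative, with log2 fold changes of 0.54 to 0.68 for ENSCPOT00000038668.1 (adjusted p 0.000357 to 0.0144), 4.66 to 4.86 for ENSCPOT00000033724.1, -2.42 to -2 for ENSCPOT00000006650.3 and -1.93 to -1.76 for ENSCPOT00000003446.3.

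The values per animal moved across the threshold with the setting. The share of the most abundant transcripts passed, before adjustment, for the 500 most abundant (-1.66 points, exact permutation p = 0.0476) and not for the 50 most abundant (-0.96 points) or as a share of TPM (-0.31 points); without single animals the difference for the 100 most abundant was -1.78 to -0.86 points. The excess of detected transcripts was 314 to 500 without single animals, with an exact permutation p of 0.0159 (500) without vehicle animal 3 and of 0.0635 or 0.0794 without any other animal. It was 490 at 5 counts (exact p = 0.0159), 482 after thinning to the smallest library (exact p = 0.00794) and 72.8 at 50 counts (exact p = 0.714); the cause was not tested. The labels give no pairing of animals between groups, and no paired analysis was run. Single transcripts under about 10 counts per library are limited by depth.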

Other observations

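The calls were also counted over 4 equal classes of transcript length. Of the shortest class (78 to 1473 bases), 9.76% fell and 13.7% rose, and of the longest class (4131 to 21861 bases) 14.5% fell and 13.0% rose. The median log2 fold change went from 0.04 in the shortest class to -0.04 in the longest, and the median level in the 33 h vehicle livers from 7.62 to 2.07 TPM. Rises of at least 2-fold numbered 345 in the shortest class and 268 in the longest, and falls of at least 2-fold 84 and 63. The part of fragment length or abundance in these values was not tested.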
